A study of Mus musculus with 9 samples.

Results

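Tcf7, Lef1, Id3, Bach2, Foxo1, Foxp1, Myb, Bcl6 and Satb1 encode transcription factors associated with naive and stem-like memory CD8+ T cells. They were taken by gene symbol, 9 genes of 55421 in the deposited count table, and all 9 passed the filter on low counts that left 15711 genes. Their RNA was measured by ribosomal RNA depleted total RNA sequencing in 9 libraries of splenic CD8+ T cells from Pmel Ly5.1 mice, whose T cells carry a transgenic receptor for a melanoma antigen. The monoculture group (3 libraries) was cultured without stromal cells. The other 6 libraries came from T cells kept for 36 h with DM5, a single immortalized stromal line derived from BL6 bone marrow, whose mitochondria were labelled with the red fluorescent protein DsRed. After co-culture, cell sorting separated DsRed+ T cells (MitoPositive, 3 libraries) from DsRed- T cells (MitoNegative, 3 libraries). All groups therefore share the Pmel Ly5.1 genotype, and both sorted groups share the co-culture and the sort. Each group has replicates lettered B, C and D. The labels do not give the age of the mice, do not say whether letters are separate animals, and do not explain the time of 0 h in the sample titles.

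TCF-1 (from Tcf7) and LEF1 are related high mobility group factors that bind the same DNA motif, can act with beta-catenin in Wnt signalling, and maintain naive and memory T cells. Id3 has no DNA-binding domain and holds E proteins off DNA, while BACH2 and BCL6 repress effector genes and BCL6 and Blimp-1 (from Prdm1) repress each other. FOXO1 drives quiescence and homing genes and is put out of the nucleus by PI3K and AKT signalling. FOXP1 also keeps naive T cells quiescent, c-Myb supports stem-like CD8+ T cells, and SATB1 organizes chromatin in T cells.

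Sequences at the starts of these genes show where motifs of the same families of factors occur. RefSeq promoter windows (GRCm38.p6, 250 bases before to 50 bases after each start) matched all 9 genes, in 20 windows, and were searched on both strands for CTTTGA (TCF and LEF factors), GTAAACA (forkhead factors), TGANTCA (AP-1 and BACH factors), CANNTG (E-box) and CAACNG (MYB). The forkhead motif lay in 1 window of Tcf7 and 1 of Myb, that is in 10.0% of the 20 windows against 3.65% of all 32851 windows. The Tcf7 match, on the plus strand of the gene, begins at position +2 of its second RefSeq start (chr11:52282576-52282605, minus strand). The Myb match begins at position +34 and reads as the reverse complement (chr10:21160935-21160964, minus strand). Both are shown as 30 bases, with the motif in capitals, because Tcf7 and Myb had among the lowest MitoPositive to MitoNegative ratios of the 9 genes.
Tcf7 site: cctttataggaGTAAACAgacccccgccat
Myb site: gtttgatggcatcTGTTTACagagttacac

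The TCF and LEF motif lay in 1 window each of Lef1, Bach2, Foxp1 and Bcl6, or 20.0% of the 20 windows against 16.0% of all windows. The 250 bases before the fourth RefSeq start of Lef1, inside the deposited gene, hold 2 matches at positions -180 and -120 (chr3:131156044-131156293, plus strand). Those before the second start of Bcl6, also inside the deposited gene, hold 1 at position -44 (chr16:23981284-23981533, minus strand). Bcl6 is shown because it alone of the 9 rose in co-culture, and Lef1 because it fell and encodes one of the factors that bind the motif, which is in capitals.
Lef1: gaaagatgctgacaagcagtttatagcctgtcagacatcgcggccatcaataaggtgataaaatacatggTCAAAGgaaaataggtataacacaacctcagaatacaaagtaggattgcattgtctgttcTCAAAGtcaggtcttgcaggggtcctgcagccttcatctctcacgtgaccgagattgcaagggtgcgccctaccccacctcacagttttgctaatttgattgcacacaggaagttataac
Bcl6: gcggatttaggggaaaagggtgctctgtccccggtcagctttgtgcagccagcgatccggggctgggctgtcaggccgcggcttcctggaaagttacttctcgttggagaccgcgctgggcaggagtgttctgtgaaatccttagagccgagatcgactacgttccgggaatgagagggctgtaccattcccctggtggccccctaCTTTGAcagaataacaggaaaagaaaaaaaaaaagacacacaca
The AP-1 and BACH motif lay in none of the 20 windows against 7.81% of all windows. The MYB motif lay in 20.0% of the 20 against 35.0% of all, and the E-box in 16 of the 20 windows and 72.3% of all, where a MYB match reading CAGTTG or CAACTG is also an E-box. A match is a run of letters and says nothing about binding. The deposited Tcf7 model begins 317 bases before the first RefSeq start, so what precedes that start lies inside the gene and is not printed.

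Libraries held 53546152 to 74722832 counts. Levels are CPM, counts divided by each library's TMM-scaled total so that libraries can be compared, and levels of different genes are compared only per kilobase of the deposited exonic length (RPKM). The 10 CD8+ T-cell markers summed to 8160 to 9090 CPM in monoculture, 7180 to 7520 in MitoNegative and 7240 to 7650 in MitoPositive, and none was at 0 in any library. Against monoculture 7 of the 10 fell in MitoPositive (median log2 change -0.35) and 8 in MitoNegative (median -0.33). Of all genes 19.9% and 18.3% fell in these comparisons. The medians of the 9 factors there were -0.35 and -0.22. The 12 B-cell markers summed to 703 to 775 CPM in monoculture, 374 to 471 in MitoNegative and 282 to 317 in MitoPositive, and none was at 0. Ighm made up most of these sums (630, 388 and 271 CPM on average). It alone of the 12 passed between the sorted groups (edgeR adjusted p = 0.0464), beside 0.165% of all genes. Its adjusted p was 0.0511 with DESeq2 size factors in edgeR and 0.0518 with the stricter filter. Nor did it pass without MitoNegative B or C, MitoPositive B or C, monoculture C, or replicate B or C. It passed with the block (0.0179), by DESeq2 (6.29e-06) and by limma voom (0.0457). The list's median log2 change between these groups was -0.06. The 12 stromal markers summed to 0.656 to 1.06 CPM in monoculture, where 7 were at 0, to 11.2 to 31.5 in MitoNegative and to 11.3 to 30.8 in MitoPositive. The 8 class II and dendritic markers summed to 123 to 187, 52.5 to 80.2 and 56.8 to 83.4 CPM in the same order, with Siglech at 0. Myeloid markers stayed between 3.98 and 8.42 CPM with S100a8 and S100a9 at 0, and CD4+ T-cell markers between 45.4 and 59.5 CPM. Natural killer markers summed to 1.9 to 3.74 CPM in monoculture, 2.84 to 4.08 in MitoNegative and 1.36 to 1.65 in MitoPositive. Of the 12 B-cell markers 9 fell in each comparison with monoculture, beside the same 19.9% and 18.3% of all genes. The part of the CD8+, B-cell, stromal, class II and natural killer markers in the results was not tested. In bulk RNA, fewer cells expressing a gene and less RNA per cell cannot be told apart.

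Tcf7 was by far the most abundant of the 9 genes, and its RNA was lower in co-cultured than in monoculture cells. Its mean level was 389 RPKM over the 9 libraries, followed by Foxo1 at 32.7, Satb1 at 29.3, Id3 at 28.2, Lef1 at 26.3, Foxp1 at 17.4, Myb at 13.8, Bach2 at 11.3 and Bcl6 at 4.07 RPKM. Foxo1, Satb1, Id3 and Lef1 lie close together in that order, and Id3 alone of these ranged from 11.2 RPKM in MitoPositive to 57.8 RPKM in monoculture. Tcf7 read 1650, 1510 and 1870 CPM in monoculture B, C and D, 1060, 1130 and 1060 CPM in MitoNegative, and 690, 735 and 871 CPM in MitoPositive. All 3 groups were apart, in that order. Transcripts for the long and short forms of TCF-1 are not separated by a count per gene.

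**Figure D1:**
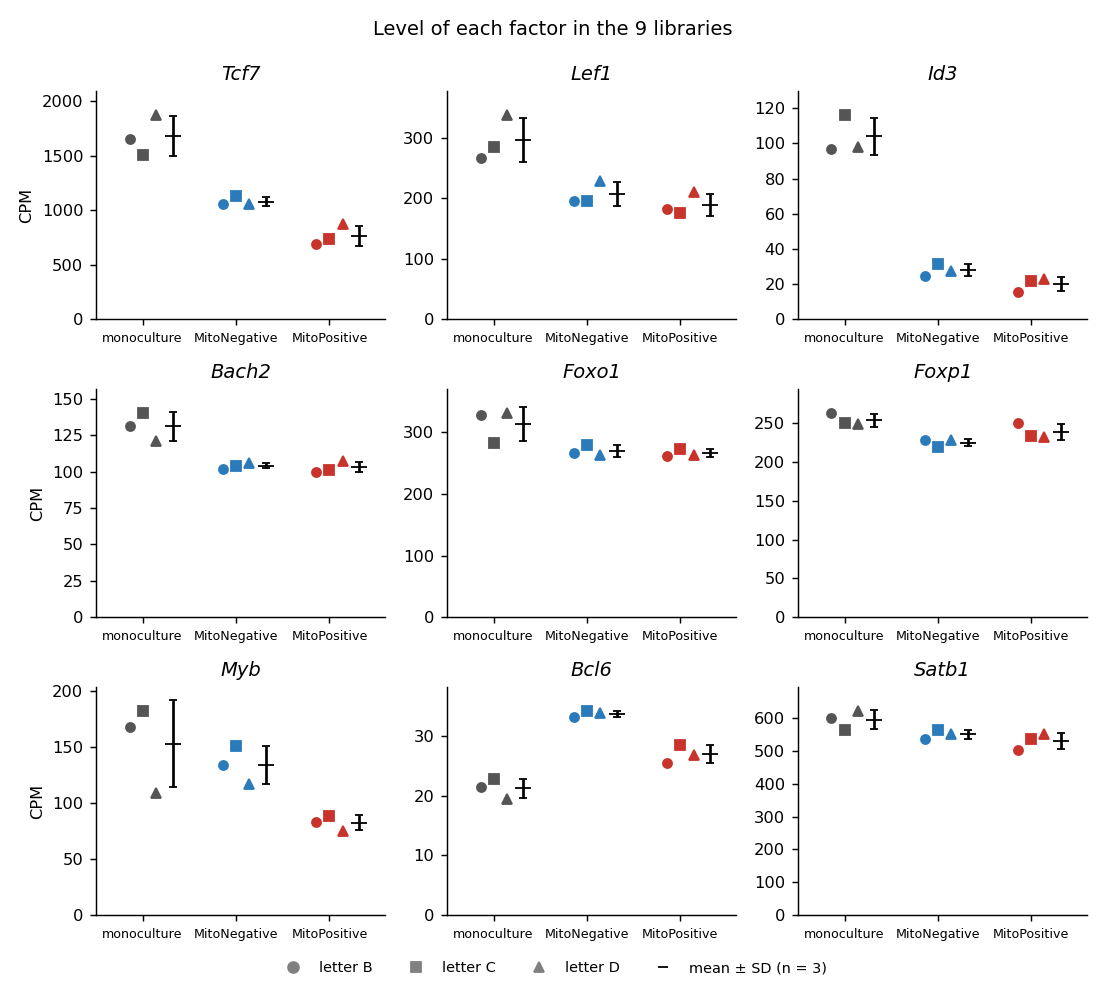
Level of each of the 9 genes in CPM (vertical axis, from 0, scaled for each gene) in the 3 groups (horizontal axis). Symbols are libraries by letter and bars are the mean ± SD of 3 libraries. Tcf7, Id3 and Myb are lowest in MitoPositive, and Bcl6 is highest in MitoNegative.

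Against monoculture, 6 of the 9 genes fell in MitoPositive (Tcf7, Lef1, Id3, Bach2, Foxo1 and Myb), Bcl6 rose, and Foxp1 and Satb1 did not pass edgeR's quasi-likelihood test. Of all 15711 genes 42.2% passed in that comparison, 19.9% as lower and 22.3% as higher. In MitoNegative against monoculture 6 fell (Tcf7, Lef1, Id3, Bach2, Foxo1 and Foxp1), Bcl6 rose, and Myb and Satb1 did not pass, against 38.9% of all genes, 18.3% lower and 20.6% higher. The comparisons share the monoculture libraries, so their values are given side by side and are not independent. The median log2 change of the 9 genes was -0.35 in MitoPositive and -0.22 in MitoNegative, beside 0.0034 and 0.01 over all genes. Means fell at both steps from monoculture through MitoNegative to MitoPositive in 7 of the 9 genes, the exceptions being Foxp1 and Bcl6, and in 25.5% of all genes. The second step was small for Bach2, Foxo1 and Satb1 (log2 changes of -0.02, -0.02 and -0.05). Its sign for Bach2 and Foxo1 changed in some settings.

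**Figure D2:**
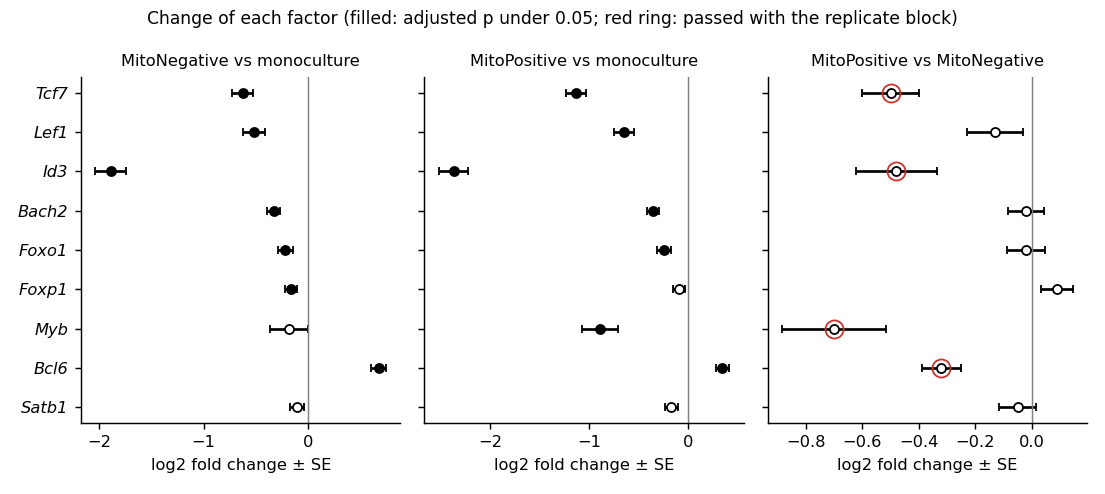
Change of each gene on the log2 scale (horizontal axis, which differs between panels) with its SE from edgeR, in the 3 comparisons. Filled points passed at an adjusted p of 0.05. Red rings, drawn in the right panel only, mark genes that passed with the replicate letter as a block. Id3 fell most against monoculture, and no point of the right panel is filled.

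Tcf7 fell by 1.13 ± 0.103 (log2, SE), a fall of 54.3%, in MitoPositive, with an edgeR adjusted p of 6.54e-06. In MitoNegative it fell by 0.63 ± 0.102, with an edgeR adjusted p of 0.000551. It was lower in all 3 letters in both comparisons. Lef1, its closest relative here, read 267, 285 and 337 CPM in monoculture, 196, 195 and 229 CPM in MitoNegative and 183, 175 and 210 CPM in MitoPositive. Both co-cultured groups lay below all monoculture libraries and overlapped each other. Lef1 fell by 0.65 ± 0.101 in MitoPositive (edgeR adjusted p = 0.000366) and by 0.52 ± 0.101 in MitoNegative (edgeR adjusted p = 0.00186). An antisense gene, Lef1os1, held counts equal to 3.16% of those of Lef1, and because strand use in counting is not given in the sources used here, reads of the pair cannot be told apart.

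Id3, which inhibits E proteins, fell more than any other of the 9 genes. It read 96.8, 116 and 98.1 CPM in monoculture, 24.8, 31.5 and 27.7 CPM in MitoNegative and 15.7, 21.5 and 23.1 CPM in MitoPositive. Monoculture stood far above both co-cultured groups, which did not overlap. Id3 fell by 2.37 ± 0.148 in MitoPositive (edgeR adjusted p = 2.10e-06) and fell by 1.89 ± 0.145 in MitoNegative (edgeR adjusted p = 1.13e-05). Of all genes, 0.452% and 0.611% had a log2 change below that of Id3 in these comparisons.

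The repressors moved in opposite directions. Bach2 averaged 131 ± 9.88 CPM (SD, n = 3) in monoculture, 104 ± 1.83 CPM in MitoNegative and 103 ± 3.56 CPM in MitoPositive. It fell by 0.35 ± 0.0623 in MitoPositive (edgeR adjusted p = 0.000885) and fell by 0.33 ± 0.0623 in MitoNegative (edgeR adjusted p = 0.00143), and the latter p became 0.0504 without replicate C. Bcl6 read 21.4, 22.7 and 19.5 CPM in monoculture, 33.2, 34.1 and 33.8 CPM in MitoNegative, and 25.5, 28.5 and 26.8 CPM in MitoPositive. The 3 groups did not overlap, with MitoNegative highest. Bcl6 rose by 0.67 ± 0.0704 in MitoNegative (edgeR adjusted p = 2.77e-05) and by 0.35 ± 0.0705 in MitoPositive (edgeR adjusted p = 0.00202).

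The forkhead genes changed little. Foxo1 read 328, 283 and 331 CPM in monoculture and averaged 270 ± 9.39 CPM in MitoNegative and 266 ± 6.36 CPM in MitoPositive. Monoculture C was the lowest of its group and nearest to the co-cultured libraries. Foxo1 fell by 0.24 ± 0.0689 in MitoPositive (edgeR adjusted p = 0.0149) and by 0.22 ± 0.0689 in MitoNegative (edgeR adjusted p = 0.0246). The first adjusted p was 0.0512 without MitoPositive B, 0.0544 without monoculture B, 0.166 without replicate B and 0.0942 without replicate D. The second passed in 13 of 21 alternative settings. It was 0.0584 with only the groups compared, 0.092 with these and the block, 0.0898 without MitoNegative B, 0.0749 without MitoNegative D, 0.0821 without monoculture B, 0.0774 without monoculture D, 0.206 without replicate B and 0.149 without replicate D. Foxp1 averaged 254 ± 8.09 CPM in monoculture, 225 ± 4.56 CPM in MitoNegative and 239 ± 10.7 CPM in MitoPositive. It fell by 0.17 ± 0.0563 in MitoNegative (edgeR adjusted p = 0.0282) and did not pass in 10 of 21 alternative settings, nor in MitoPositive (log2 change -0.09 ± 0.0563, adjusted p = 0.234). In MitoNegative the adjusted p was 0.0771, 0.135 and 0.0546 without MitoNegative B, C and D, 0.0896 without monoculture B, and 0.15 and 0.205 without replicates B and C.

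Myb read 168, 182 and 109 CPM in monoculture, 134, 151 and 117 CPM in MitoNegative and 83.6, 88.5 and 75.3 CPM in MitoPositive. Monoculture D was lower than all MitoNegative libraries, and MitoPositive was below every other library. Myb fell by 0.89 ± 0.184 in MitoPositive against monoculture (edgeR adjusted p = 0.00472), and the adjusted p was 0.0939 without replicate B. In MitoNegative its log2 change was -0.19 ± 0.182 (edgeR adjusted p = 0.444). Without monoculture D that change was -0.38 and the adjusted p 0.0166, and without replicate D they were -0.30 and 0.0156. Satb1 averaged 594 ± 28.6 CPM in monoculture, 550 ± 13.6 CPM in MitoNegative and 530 ± 24.9 CPM in MitoPositive. Its log2 change in MitoPositive was -0.17 ± 0.0655, with an adjusted p of 0.0612 by edgeR, 0.018 by DESeq2, 0.0496 by limma voom and 0.0392 by edgeR without monoculture C. Genes that overlap a member on the same strand held 24.4 CPM (here without TMM scaling) in MitoPositive B and 9.39 to 13.7 in the other 8 libraries. Those overlapping Satb1 on either strand held 2.05% of the counts of Satb1, and their part in its values was not tested.

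Between the sorted groups, which differ in DsRed signal after the same co-culture, 4 of the 9 genes were lower in every MitoPositive than in every MitoNegative library: Tcf7, Id3, Myb and Bcl6. Groups were apart in that direction in 9.55% of all genes. Foxp1 was apart with MitoPositive higher, as were 10.5% of all genes. None of the 9 passed edgeR's adjusted test fitted by group, in which 26 genes or 0.165% passed, while 4 of the 9 had an unadjusted p under 0.05, as had 10.5% of all genes. Libraries of the same letter deviated together in these groups, and with the letter as a block the same 4 genes passed, as did 2.34% of all genes (1.08% lower). By DESeq2 the 4 passed as well, with 2.66% of all genes (1.10% lower), and by limma voom none did, with 0.210% of all genes.

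Tcf7 was 29.3% lower in MitoPositive, a log2 change of -0.50 ± 0.102. Its adjusted p was 0.069 by edgeR fitted by group and 0.0214 with the block. Its within-letter log2 differences were -0.62, -0.62 and -0.28 for B, C and D. Of 21 alternative settings, 7 gave an adjusted p under 0.05 and 14 did not, with a range of 0.000212 to 1. Among settings with libraries left out, it was 0.0329 without MitoPositive D, 0.0395 without monoculture D and 0.018 without replicate D, and the highest was 1 without replicate C. Myb was 38.3% lower, with a log2 change of -0.70 ± 0.184, an adjusted p of 0.198 by edgeR fitted by group and 0.00731 with the block. Its within-letter differences were -0.68, -0.77 and -0.63, the most even of the 4 falls in proportion. Myb passed in 6 of 21 alternative settings (adjusted p 1.03e-08 to 1), with 0.034 without monoculture D, 0.00806 without replicate D and 1 without replicate C. The lowest value came from the fit of only the 2 sorted groups with the block. That fit was chosen after seeing the data and called 2810 genes. By DESeq2 the adjusted p of Myb was 0.00151.

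Id3 was 28.4% lower, with a log2 change of -0.48 ± 0.144 and within-letter differences of -0.66, -0.55 and -0.26, smallest in D as for Tcf7. Its adjusted p was 0.236 by edgeR fitted by group and 0.0222 with the block, and it passed in 3 of 21 alternative settings (0.000603 to 1). Bcl6 was 20% lower, with a log2 change of -0.32 ± 0.0698 and within-letter differences of -0.38, -0.26 and -0.33. Its adjusted p was 0.0862 by edgeR fitted by group, 0.0253 with the block and 0.0447 without monoculture D, and it passed in 4 of 21 alternative settings (0.000109 to 1). The lowest values of Id3 and Bcl6 came from the same fit as that of Myb, chosen after seeing the data. By DESeq2 the adjusted p was 0.0299 for Id3 and 0.00566 for Bcl6. The other 5 genes differed by log2 changes of -0.13 ± 0.101 for Lef1, -0.05 ± 0.0655 for Satb1, -0.02 ± 0.0623 for Bach2, -0.02 ± 0.0689 for Foxo1 and 0.09 ± 0.0563 for Foxp1. Lef1 was lower in all 3 letters without passing the block fit (adjusted p = 0.31). Tcf7 and Lef1, the related pair, thus had log2 changes of -0.50 and -0.13, and the difference between these was not tested.

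**Figure D3:**
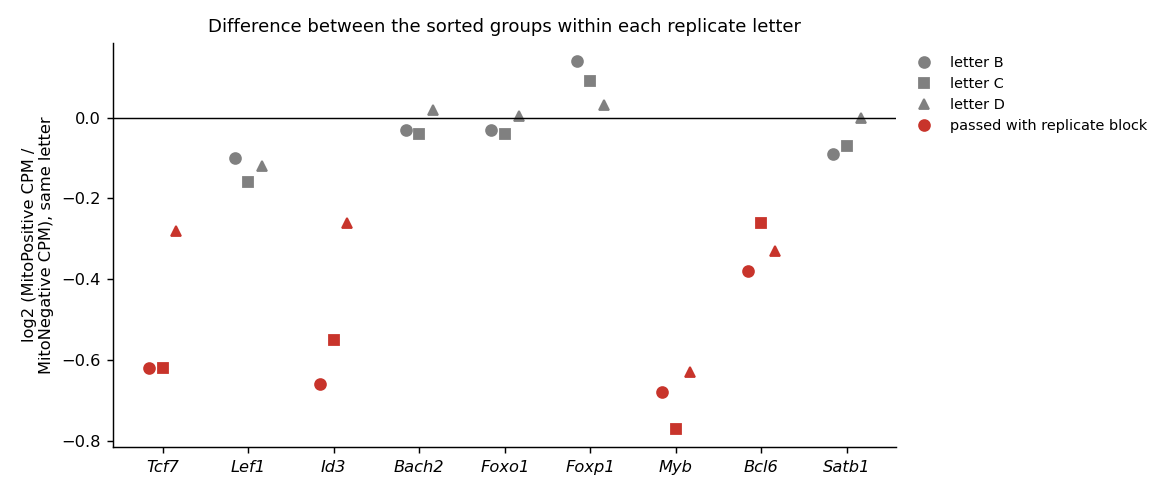
Log2 ratio of MitoPositive to MitoNegative CPM within each letter (vertical axis) for the 9 genes (horizontal axis). Red symbols mark the 4 genes that passed with the replicate block. Tcf7, Id3, Myb and Bcl6 are below 0 in all 3 letters, and Bach2 and Foxo1 lie around 0.

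Among all genes tested, Myb stood at percentile 1.84 of log2 change between the sorted groups, Tcf7 at 4.11, Id3 at 4.4 and Bcl6 at 8.33, while Bach2 and Foxo1 stood at 46.3 and 45.2. The median of the 9 was -0.13 beside -0.00038 over all genes.

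**Figure D4:**
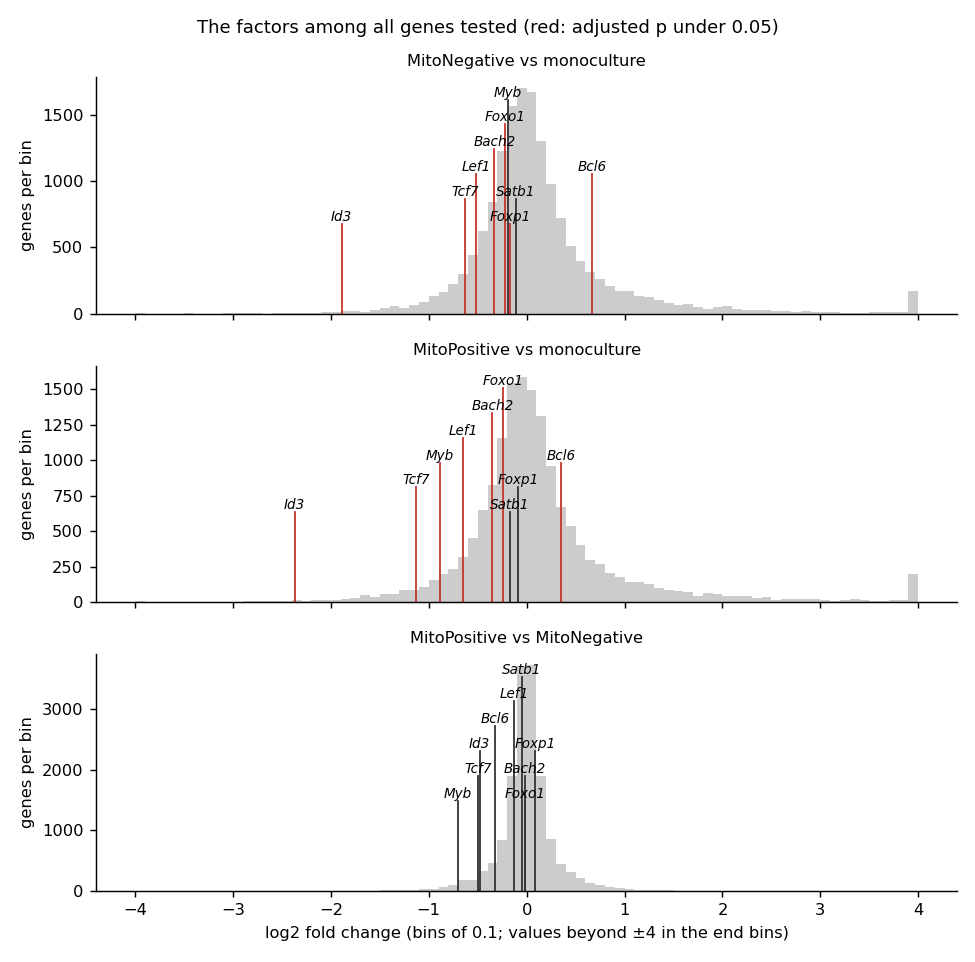
Number of genes (vertical axis) by log2 change (horizontal axis, bins of 0.1) among 15711 genes in the 3 comparisons, with the 9 genes marked by lines, red where the adjusted p passed. Id3 lies in the far left tail of both comparisons with monoculture, and Myb is the leftmost of the 9 between the sorted groups.

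The levels of opposed factors ran the other way from Id3 and, between the sorted groups, from Bcl6. Id2, the Id protein linked to effector cells, rose from 47.3 ± 6 CPM in monoculture to 73.1 ± 5.39 CPM in MitoNegative (edgeR adjusted p = 0.00128) and 102 ± 13.6 CPM in MitoPositive (edgeR adjusted p = 2.29e-05). Between the sorted groups its log2 change of 0.48 ± 0.111 did not pass by edgeR (adjusted p = 0.108) or with the block (0.0756) but did by DESeq2 (0.00286), with within-letter differences of 0.65, 0.66 and 0.12. The log2 ratio of Id3 to Id2 CPM, compared between libraries only since gene lengths differ, was 0.99, 1.5 and 0.90 in monoculture, -1.5, -1.15 and -1.52 in MitoNegative and -2.81, -2.36 and -1.91 in MitoPositive. Per kilobase, Id3 averaged 57.8, 15.6 and 11.2 RPKM and Id2 19.4, 30 and 41.9 RPKM in monoculture, MitoNegative and MitoPositive. Prdm1, which encodes Blimp-1, averaged 2.93 ± 0.251, 6.31 ± 0.28 and 11.1 ± 1.76 CPM in the same order of groups. It rose by 0.81 ± 0.13 in MitoPositive against MitoNegative (edgeR adjusted p = 0.0464) and did not pass in 10 of 21 alternative settings, among them those without MitoNegative B, C or D (0.198, 0.23 and 0.067), MitoPositive B or C (0.175 and 0.267), monoculture C (0.062) and replicate B or C (0.4 and 1). The log2 ratio of Bcl6 to Prdm1 averaged 2.85 ± 0.201, 2.42 ± 0.0838 and 1.29 ± 0.265. Groups were apart in all 6 comparisons of the ratios, each with an exact two-sided permutation p of 0.1, the smallest that 3 against 3 allow (adjusted p = 0.1 over 6 tests). With a prior of 2 CPM added, the Bcl6 to Prdm1 difference of MitoNegative from monoculture was -0.13 in place of -0.44, with an exact permutation p of 0.2.

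**Figure D5:**
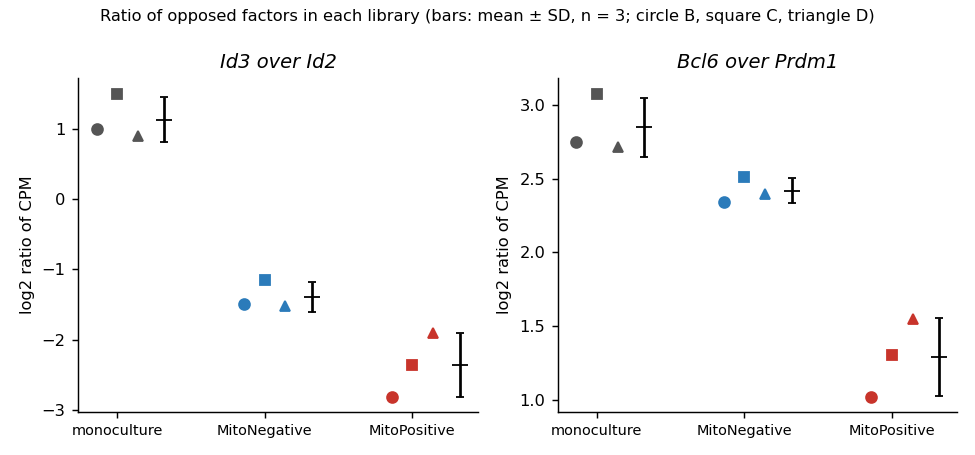
Log2 ratio of CPM (vertical axis) of Id3 to Id2 and of Bcl6 to Prdm1 in each library by group (horizontal axis), with the mean ± SD of 3 libraries. Ratios are not corrected for gene length, and both are highest in monoculture and lowest in MitoPositive.

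Genes downstream of, or acting with, the 9 factors were counted from lists. In MitoPositive against monoculture 19.9% of all genes fell and 22.3% rose, and in MitoNegative 18.3% fell and 20.6% rose. Of 14 FOXO target genes, 8 fell and 1 (Bcl2l11) rose in MitoPositive against monoculture, and 7 fell and 1 rose in MitoNegative, with median log2 changes of -0.44 and -0.24. The MitoNegative count of 8 was 5 without replicate B and 5 without replicate C. Klf2, a quiescence factor, averaged 71.5 ± 3.56 CPM in monoculture, 4.75 ± 0.591 CPM in MitoNegative and 2.42 ± 0.841 CPM in MitoPositive. Il7r, the interleukin-7 receptor, averaged 507 ± 77, 442 ± 48.6 and 545 ± 56.9 CPM in the same order and passed in none of the 3 comparisons. Between the sorted groups 1 of the 14 FOXO targets passed by edgeR fitted by group, beside 0.165% of all genes. This was Pik3ip1, an inhibitor of PI3K, which fell by 0.50 ± 0.0752 (edgeR adjusted p = 0.046). It did not pass in 10 of 21 alternative settings, among them those without MitoNegative B, C or D (0.198, 0.159 and 0.067), MitoPositive B or C (0.164 and 0.267), monoculture C (0.0591) and replicate B or C (0.4 and 0.964). With the block, Klf2, S1pr1 and Pik3ip1 were lower, beside 1.08% of all genes. By DESeq2 4 of the 14 were lower and 0 higher, beside 1.10% of all genes lower. An unadjusted edgeR p under 0.05 was found for 6 of the 14, beside 10.5% of all genes.

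Of 9 genes listed as Wnt feedback genes, 6 were tested. The list includes Ccnd1 and Myc, which are Wnt targets but not feedback inhibitors. Axin2 fell and Ccnd1 and Myc rose in both comparisons with monoculture, and Znrf3 fell in MitoPositive, where the count of 4 was 2 without replicate C. Axin2, a feedback inhibitor of Wnt signalling, averaged 14.9 ± 1.34 CPM in monoculture, 5.86 ± 1.04 CPM in MitoNegative and 4.92 ± 1.19 CPM in MitoPositive. Ctnnb1, which encodes beta-catenin, averaged 269 ± 6.82, 270 ± 12.4 and 267 ± 9.08 CPM, and its direction changed with the scaling. Of 20 measured partners and corepressors, 8 fell and 4 rose in MitoPositive against monoculture and 7 fell and 4 rose in MitoNegative, beside 19.9% and 18.3% of all genes lower and 22.3% and 20.6% higher. The MitoPositive count of 12 was 6 without replicate B, and the MitoNegative count of 11 was 7 without replicate C. Tcf3, which encodes an E protein that Id3 binds, fell by 0.22 ± 0.0672 in MitoPositive (edgeR adjusted p = 0.0186) and by 0.26 ± 0.0672 in MitoNegative (edgeR adjusted p = 0.00896). The first was 0.0822 without MitoPositive B, 0.0667 without monoculture D and 0.0682, 0.074 and 0.079 without replicates B, C and D, and the second 0.0718 without replicate C. Ccnd1 was low, with 3, 11 and 38 counts in monoculture B, C and D. It averaged 0.287 ± 0.304 CPM there, 2.04 ± 0.33 CPM in MitoNegative and 1.91 ± 0.318 CPM in MitoPositive. Without replicate C the adjusted p of Ccnd1 was 0.0727 in MitoPositive and 0.075 in MitoNegative. That of Znrf3 in MitoPositive was 0.0866 without replicate C, 0.118 without replicate B and 0.0575 without MitoPositive C. None of either list passed between the sorted groups by edgeR fitted by group, beside 0.165% of all genes. In each list 1 gene had an unadjusted p under 0.05, beside 10.5% of all genes. By DESeq2, which called 2.66% of all genes, 1 gene of the Wnt list and 0 partners passed. With the block, which called 2.34% of all genes, Myc was higher and 0 partners passed.

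Of 11 tested family relatives of the 9 factors, 4 rose (Tcf7l2, Id1, Id2 and Mybl1) and 3 fell (Bach1, Foxo3 and Foxo4) in MitoPositive against monoculture, and 3 rose and 3 fell in MitoNegative, beside the shares of all genes (22.3% higher and 19.9% lower, then 20.6% and 18.3%). Tcf7l2 and Id1 were under 1 CPM in every group. The adjusted p of Mybl1 was 0.0642 without MitoPositive D, 0.0723 without monoculture B and 0.0698 and 0.0798 without replicates B and C, and that of Id1 was 0.0507 and 0.0919 without replicate D. Of 12 genes of the stem-like state, 9 fell and 0 rose in each comparison with monoculture (edgeR), with median log2 changes of -0.78 in MitoPositive and -0.68 in MitoNegative. Of these, 9 and 11 had an unadjusted p under 0.05, and DESeq2 also found 0 higher, while with the block 1 was higher in each and 9 and 11 lower. Of all genes 19.9% and 18.3% were lower, and the MitoNegative count of 9 was 5 without replicate C. Slamf6, a surface marker of stem-like cells, fell from 159 CPM in monoculture to 63.7 CPM in MitoNegative and 50.8 CPM in MitoPositive, and Cxcr5 from 26.9 to 9.99 and 8.52 CPM, with an adjusted p of 0.055 for MitoNegative without replicate C.

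Of 20 effector and exhaustion factors, 10 rose and 3 fell in MitoPositive against monoculture, and 9 rose and 2 fell in MitoNegative, with median log2 changes of 0.69 and 0.43, beside 22.3% and 20.6% of all genes higher and 19.9% and 18.3% lower. Bhlhe40 rose from 73.5 CPM to 506 CPM in MitoNegative and 603 CPM in MitoPositive. Tbx21, which encodes T-bet, averaged 40.4 ± 7.39, 58.2 ± 3.88 and 75.7 ± 9.44 CPM from monoculture through MitoNegative to MitoPositive. Its adjusted p in MitoNegative was 0.0828 without replicate D. Eomes, Stat4 and Tox fell in MitoPositive. Of 15 T-lineage factors, 10 fell and 2 rose in each comparison with monoculture, among them Ets1 (1330, 850 and 796 CPM) and Runx1 (21.2, 13.4 and 8.96 CPM) as lower and Runx3 and Gfi1 as higher, with median log2 changes of -0.47 and -0.31. Of 15 PI3K and mTOR pathway genes, some of which act upstream of FOXO1, 4 rose and 5 fell in MitoPositive and 4 rose and 3 fell in MitoNegative, beside the same shares of all genes. Without replicate C the counts of 9 and 7 were 4 and 4. Pik3cg rose from 30 CPM to 56 and 68.3 CPM, and Phlpp1, a phosphatase of AKT, from 17.3 to 38.3 and 45 CPM. Changes of RNA in this pathway do not measure its signalling. Between the sorted groups 0 family relatives, stem-like state genes, T-lineage factors and PI3K pathway genes passed edgeR fitted by group. That fit called 0.165% of all genes. In the same order 3 of 11, 6 of 12, 7 of 15 and 3 of 15 had an unadjusted p under 0.05, beside 10.5% of all genes. Of the effector and exhaustion factors 1 passed (Prdm1), 3 with the block (Prdm1, Zeb2 and Rbpj) and 4 by DESeq2, and 8 of 20 had an unadjusted p under 0.05. By DESeq2, which called 2.66% of all genes, 1 relative was higher, 1 stem-like state gene was higher and 1 lower, 1 T-lineage factor was higher and 2 lower, and 1 pathway gene was higher. With the block, which called 2.34% of all genes (1.08% lower), Slamf6, Dapl1, Il6ra and Cd28 passed among stem-like state genes, 3 of them lower. Runx1 passed among T-lineage factors.

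The genes whose levels followed Tcf7 most closely over the 9 libraries, by the root mean square difference of centred log2 CPM among 8589 genes, were Tbxa2r (0.0947), Fam117a (0.095), Ighm (0.107), Dbp (0.11) and Nsg2 (0.111). Ighm, one of the B-cell markers, averaged 630 ± 36, 388 ± 43.7 and 271 ± 10.8 CPM from monoculture through MitoNegative to MitoPositive. Which cells its RNA came from was not tested. For Lef1 they were Lbh (0.0677), Bicra (0.0724), Ubald1 (0.0744), Oxct1 (0.0747) and Ndrg2 (0.0753). Of the 5 genes nearest to Tcf7, 2 stayed among the nearest 5 without replicate B, 4 without C and 1 without D, and for Lef1 0, 1 and 1 did.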

How the data were processed

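Gene expression was analysed in 9 libraries, 3 per group. The authors deposited raw counts per gene, made with bcl2fastq, cutadapt, STAR 2.7 and featureCounts on GRCm38 per the submitters' processing notes, which also name DESeq2. Neither the release of the annotation nor strand use in counting is given in the sources used here. The table held 55520 entries, of which 99 were spike-ins with 0 counts.

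Counts were fitted in R 4.3.3 with edgeR 4.0.16 (quasi-likelihood, robust, TMM, filterByExpr at 10 counts and a total of 15) over all 9 libraries by group, leaving 6 residual degrees of freedom. P-values were adjusted by Benjamini-Hochberg over 15711 genes, with a threshold of 0.05. Since no label calls the replicates separate cultures or animals, p-values reflect only how far these libraries differ, possibly for technical reasons. Same-letter residuals correlated above a threshold of 0.1 between MitoPositive and MitoNegative (0.402, 0.339 and 0.459 for B, C and D). The same held between MitoNegative and monoculture (0.213, 0.153 and 0.111). Between MitoPositive and monoculture the correlations were 0.248, 0.0521 and 0.163. The main fit took no account of letters, which entered as a block only in alternative fits. Alternatives were the block, DESeq2 1.42.0, limma 3.58.1 voom, other scalings and filters, only the groups compared, and leaving out libraries.

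The 9 genes, the lists and the tests were chosen with earlier results of these data known. Named genes were the 9, up to 4 passing genes with the largest change per list and comparison (a selection of which is printed), 5 nearest genes to Tcf7 and to Lef1 among genes with mean log2 CPM 3 or higher, and a fixed set of related and marker genes. Cd8a and Col1a1, also in that set, are covered by their lists, and some items of the set are not reported here. A planned comparison of protein sequences was not done here.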

Additional observations from a re-analysis of the deposited data

How the results depend on the processing

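The members that passed between MitoPositive and MitoNegative numbered 0 by edgeR fitted by group, 4 with the replicate block, 4 by DESeq2, 1 with no filter, 1 with only the 2 groups compared, 5 with only these groups and the replicate block (chosen after seeing the data), and 0 to 3 when libraries were left out. Genes passing numbered 26, and 367, 418, 171, 65 and 2810 in the same settings, 15 with DESeq2 size factors, 14 with total counts as the scale, 4 with a stricter filter, and 0 to 120 when libraries were left out. Against monoculture, leaving out libraries gave 4122 to 6695 genes in MitoPositive and 3495 to 6037 in MitoNegative, the low ends without replicate C, against 6637 and 6110. No other count of the 9 genes against monoculture moved by over 1.5 times, and the block changed no call of the 9 there. Tcf7, Lef1, Id3 and Bcl6 kept direction and call against monoculture in all 21 settings. Signs changed only for log2 changes that did not pass: between the sorted groups Bach2 (0.00072 with total counts, -0.04 to 0.0029 with libraries left out) and Foxo1 (-0.04 to 0.01). With libraries left out Col1a1 ranged from -0.47 to 0.26 between the sorted groups, and Cd8a from -0.03 to 0.09 in MitoPositive against monoculture. Ctnnb1 was 0.00068 with no filter, 0.0025 with total counts and -0.04 to 0.02 with libraries left out between the sorted groups. In MitoPositive against monoculture it was 0.01 with no filter, the stricter filter and only the groups compared with or without the block, 0.03 with total counts and -0.03 to 0.02 with libraries left out, and in MitoNegative -0.03 to 0.05. With a prior of 2 CPM the Bcl6 to Prdm1 difference of MitoNegative from monoculture was -0.13 in place of -0.44.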
